A study of Homo sapiens with 4 samples.

Results

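Mucosal and skin epithelia secrete small proteins that kill microbes, starve them of iron or block the proteases that damage tissue. The 10 genes of this defense described here, in arrays of Ca9-22 cells, were chosen by name and not by their signal. Earlier results of these data were known when the choice was made. The 10 genes comprise the protease inhibitors SLPI, PI3 and WFDC2, the antimicrobial proteins LCN2, RNASE7, DEFB1, DEFB4A, CAMP and LTF, and the bacterial wall binding protein PGLYRP4. All 10 genes had a probe, 11 probes in total, and 7 of the 10 were among the 19550 genes bright enough to be tested.

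The Ca9-22 line is an established human line that derives from a gingival squamous cell carcinoma. Total RNA came from 2 control cultures and 2 cultures in which KPNA4, an importin alpha that carries proteins into the nucleus, had been knocked down, and each culture was hybridized to 1 Agilent one-color whole human genome array. The labels describe siRNA transfection 3 days before harvest in both groups, whereas the methods of the study describe short hairpin RNAs for KPNA4, and whether both knockdown cultures received the same silencing RNA is not given in the labels. The design text calls the 2 cultures per condition biological replicates, but nothing says that they were transfected separately, so p-values measure only the spread between these cultures.

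Values below are log2 signals set against each array's 75th percentile, and groups were compared with limma and Benjamini-Hochberg adjustment over all genes tested. In signal units this percentile was 1466 and 1381 for the controls and 1938 and 2096 after knockdown. Over all genes, the median log2 fold change was -0.10 with this scaling and 0.40 without any scaling, and the members are therefore also given relative to that median. Across genes, the Pearson correlation was 0.998 within each group and 0.979 between groups. KPNA4 itself had log2 signals of 4.02 and 4.03 in the controls and 2.36 and 2.05 after knockdown, a log2 fold change of -1.82 (SE 0.12, limma adjusted p = 0.00183). In the knockdown arrays 312 tested genes were measured that were not well above background on any control array, and for 243 genes it was the reverse. Among the former were HLA-DRB5, at least 5.90-fold higher, GSTM1, at least 1.59-fold higher, CHI3L2, at least 1.13-fold higher, and RPS4Y1, at least 43.4-fold higher, genes whose presence commonly differs between cell lines (chosen after their values were seen). HLA-DRB4, of the same kind and also dim in the controls, had a log2 fold change of 0.33 that did not pass the threshold (limma adjusted p = 0.124). A difference between the cell stocks and the knockdown cannot be told apart for any result below, since each group has only its own cultures. In bulk RNA, more or fewer cells of one state and more or less RNA per cell cannot be told apart either.

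SLPI and PI3 (elafin) inhibit neutrophil elastase through whey acidic protein (WAP) domains and also kill microbes, and WFDC2 (HE4) carries the same kind of domain. LCN2 captures the siderophores with which bacteria take up iron, and RNASE7 is a cationic ribonuclease of keratinocytes. DEFB1 is the constitutive and DEFB4A the inducible beta-defensin of epithelia. CAMP is the precursor of the cathelicidin LL-37, LTF is the iron-binding lactoferrin, and PGLYRP4 recognizes peptidoglycan. In squamous epithelium several of them are known to be induced by inflammatory cytokines through NF-κB and to accompany differentiation.

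Of the 7 tested members, SLPI, WFDC2, PI3 and LCN2 were higher after KPNA4 knockdown and RNASE7 was lower, while DEFB1 and DEFB4A did not pass the threshold of 0.05. Over all genes tested, 20.3% were called higher and 29.5% lower. In numbers of genes these were 3973 and 5766, and without scaling they were 11258 and 1048. SLPI and WFDC2 were higher by at least 2-fold, as were 5.28% of all genes tested. No tested member was lower by at least 2-fold, against 3.23% of all genes. The median log2 fold change of the 7 tested members was 0.54. These 7 do not stand for the 10, because CAMP, LTF and PGLYRP4 were not well above background on any array.

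**Figure D1:**
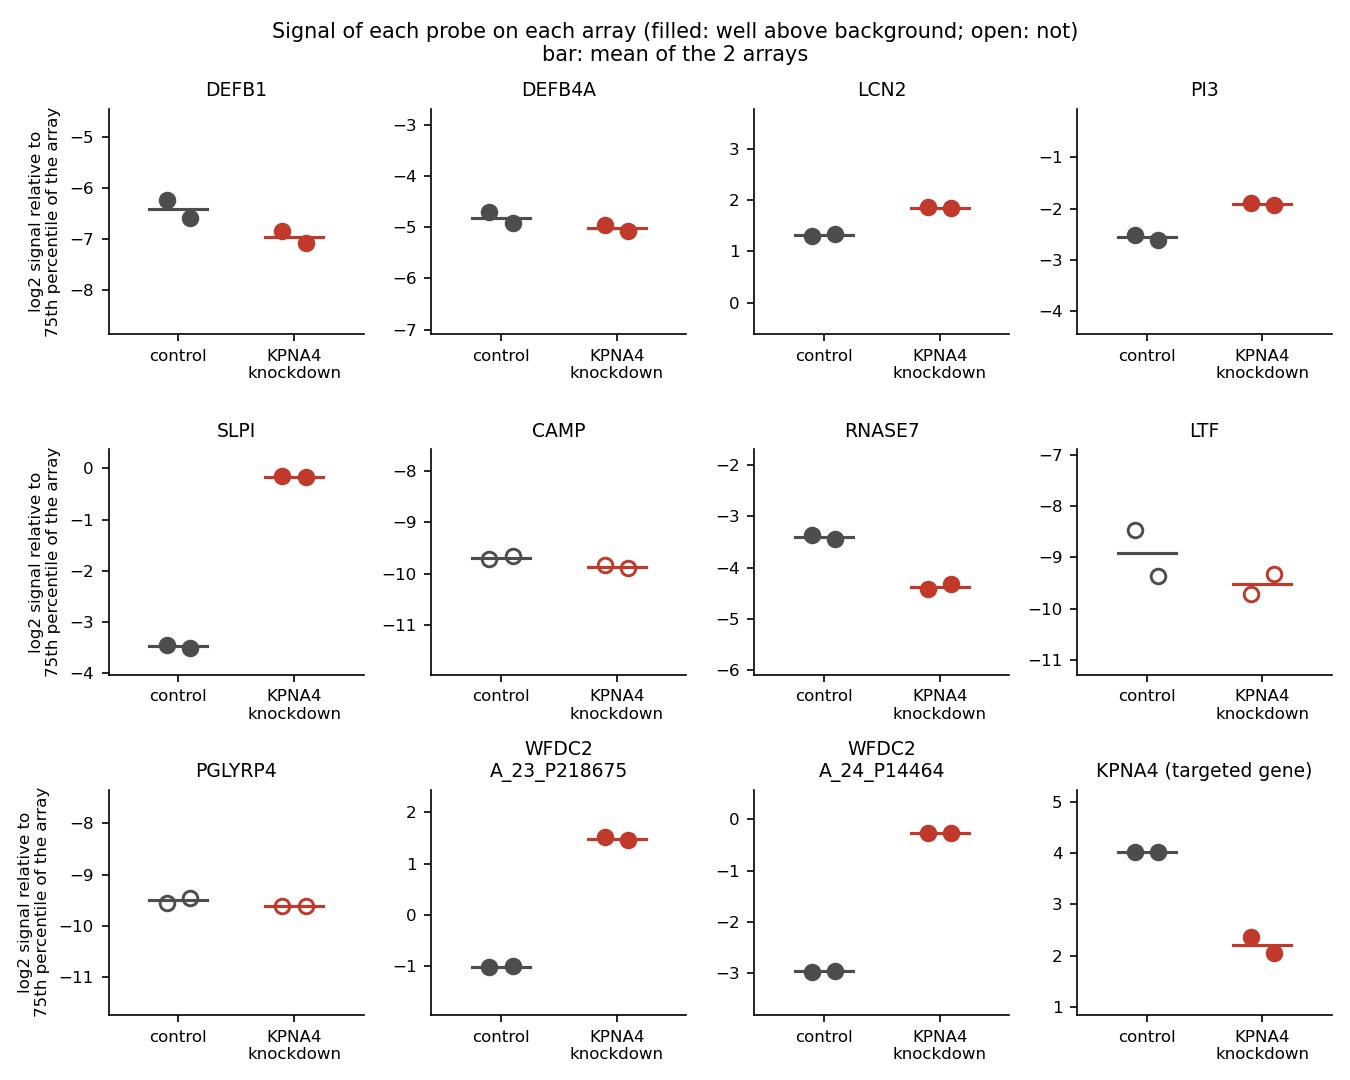
Log2 signal relative to the 75th percentile of the array for the 11 probes of the 10 members and for KPNA4 on the 2 control and 2 KPNA4 knockdown arrays, 1 point per culture, with the mean of each group as a bar and all panels spanning the same log2 range; open circles mark probes not well above background on that array. SLPI and WFDC2 separate most widely, LCN2 and PI3 by a small step, RNASE7 lies lower after knockdown, and CAMP, LTF and PGLYRP4 are open on all 4 arrays.

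SLPI had log2 signals of -3.45 and -3.50 in the controls and -0.15 and -0.17 after knockdown. The processed signals behind them were 134 and 122 units in the controls and 1752 and 1861 units after knockdown, so the groups stood far apart with or without scaling. The log2 fold change was 3.32 (SE 0.06, 95% confidence interval 3.15 to 3.48, limma adjusted p = 0.000298), or 9.97-fold. Relative to the median of all genes, SLPI was higher by 3.42 on the log2 scale. It passed the threshold when any 1 array was left out, with log2 fold changes between 3.29 and 3.35.

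WFDC2 was read by a pair of probes. Its brighter probe had log2 signals of -1.03 and -0.995 in the controls and 1.52 and 1.46 after knockdown, a log2 fold change of 2.50 (SE 0.06, 95% confidence interval 2.33 to 2.66, limma adjusted p = 0.000359), or 5.65-fold. Its other probe gave -2.97 and -2.95 in the controls and -0.27 on each knockdown array, a log2 fold change of 2.69 (SE 0.06, limma adjusted p = 0.000283 among probes), or 6.47-fold. On both probes the knockdown arrays lay above the control arrays. Among probes, 20% were called higher and 5.14% were higher by at least 2-fold. Relative to the median of all genes, WFDC2 was higher by 2.60 on the log2 scale.

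PI3 had log2 signals of -2.51 and -2.61 in the controls and -1.89 and -1.92 after knockdown. Its groups did not overlap, but the step was far smaller than that of SLPI. The log2 fold change was 0.65 (SE 0.06, 95% confidence interval 0.47 to 0.83, limma adjusted p = 0.00422), or 1.57-fold, and without scaling it was 1.15. Relative to the median of all genes, PI3 was higher by 0.75.

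PI3, SLPI and WFDC2 lie in one cluster of WAP domain genes on chromosome 20, and the genes between and beside them were set next to them in RefSeq order. The stretch from WFDC5 to WFDC3 holds 26 protein-coding genes, all with a probe, of which 10 were tested. Higher after knockdown were PI3, SLPI, WFDC2 and PIGT, a subunit of the enzyme that attaches lipid anchors to proteins, with a log2 fold change of 0.44 (SE 0.10, limma adjusted p = 0.0252). Lower were MATN4, a matrix protein next to SLPI, with -1.69 (SE 0.08, limma adjusted p = 0.000915), and DBNDD2, with -0.49 (SE 0.06, limma adjusted p = 0.00593). Changes as small as that of DBNDD2 depend on the scaling, since the median of all genes was -0.10 with it and 0.40 without any. SDC4 (0.20), SYS1 (-0.18) and WFDC3 (-0.05) did not pass the threshold, and neither did WFDC5, which was too dim for a level in the controls. The other 16 genes, among them the WAP genes WFDC12, EPPIN, WFDC6 and WFDC8, were too dim to test. Higher genes thus stood beside lower and unmeasured ones within the stretch.

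**Figure D2:**
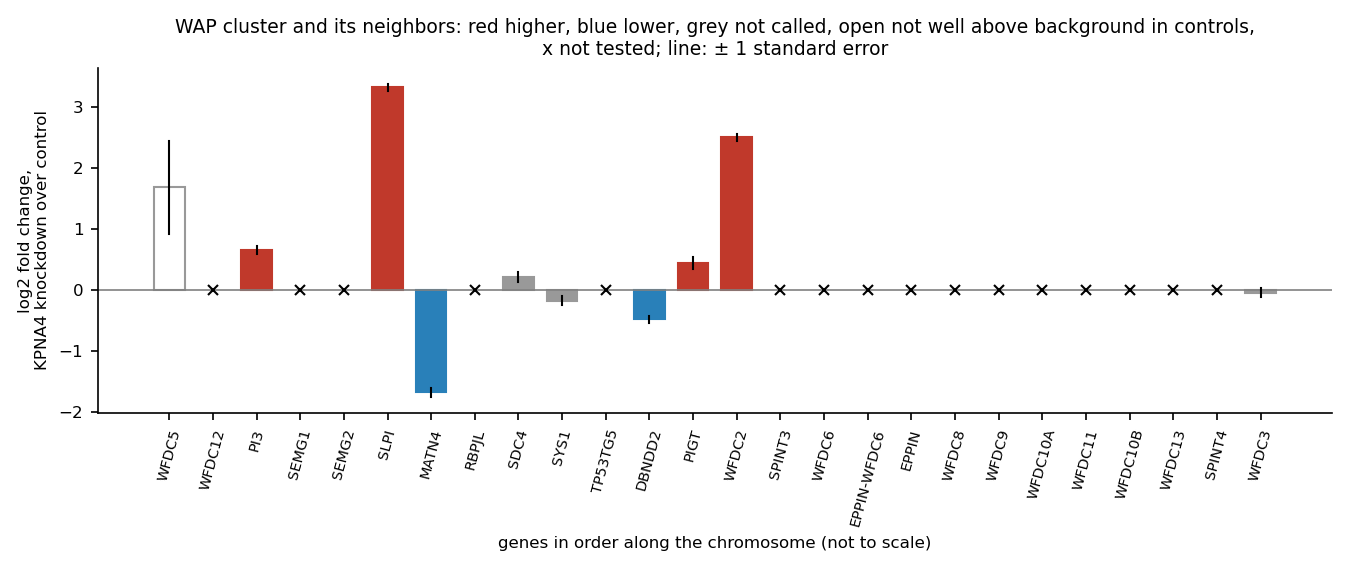
Log2 fold change, KPNA4 knockdown over control, of the 10 tested genes of the WAP cluster on chromosome 20 in RefSeq order, with standard errors; crosses mark the 16 genes not tested and the open bar marks WFDC5, too dim in the controls. SLPI (3.32) and WFDC2 (2.50) stand above all others of the stretch and MATN4 (-1.69) lies lowest.

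LCN2 had log2 signals of 1.30 and 1.34 in the controls and 1.87 and 1.84 after knockdown. The groups did not overlap, and the processed signals were 3604 and 3485 units in the controls and 7096 and 7518 units after knockdown. The log2 fold change was 0.54 (SE 0.06, 95% confidence interval 0.38 to 0.70, limma adjusted p = 0.00481), or 1.46-fold, and without scaling it was 1.04. Relative to the median of all genes, LCN2 was higher by 0.64. SLC22A17, a receptor for LCN2, was higher by 0.61 on the log2 scale (SE 0.07, limma adjusted p = 0.00533, chosen after its value was seen).

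RNASE7 went the other way. Its log2 signals were -3.35 and -3.44 in the controls and -4.42 and -4.32 after knockdown, and its processed signals were 143 and 127 units in the controls and 90.4 and 105 units after knockdown. Both knockdown arrays lay below both control arrays on either scale. The log2 fold change was -0.97 (SE 0.07, 95% confidence interval -1.17 to -0.77, limma adjusted p = 0.00237), 1.96-fold lower. Without scaling it was -0.47 (limma adjusted p = 0.0118). Under plain normexp background correction, which called no gene at all, it changed sign to 0.39 (limma adjusted p = 0.800). When normexp was run without 12 spots in bright surroundings, it was -0.75 (limma adjusted p = 0.000186). Both normexp runs added 50 units to each signal, which draws the fold changes of dim probes toward 0. Relative to the median of all genes, the value of RNASE7 was -0.87 on the log2 scale. RNASE8 is a close relative of RNASE7, and whether the probe also binds its transcript was not tested.

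The promoters of the called members for which a RefSeq window was at hand (LCN2, WFDC2 and RNASE7) are shown. SLPI and PI3 had no such window, and a link between these sequences and the direction of change was not tested. Each line gives the 250 bases before the annotated start of the gene, GRCh38.p14, plus strand. Capitals mark matches, on either strand, to the kappaB letters GGGNNNNNCC or the AP-1 letters TGANTCA. N stands for any base, so the latter are looser than the AP-1 consensus, and a match need not be an AP-1 site.
LCN2 at chr9:128149203-128149452: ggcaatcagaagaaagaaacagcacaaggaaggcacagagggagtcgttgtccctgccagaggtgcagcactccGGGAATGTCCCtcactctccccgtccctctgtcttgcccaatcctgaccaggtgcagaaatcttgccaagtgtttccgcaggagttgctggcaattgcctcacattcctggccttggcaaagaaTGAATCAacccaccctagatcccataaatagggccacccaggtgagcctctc
WFDC2 at chr20:45469503-45469752: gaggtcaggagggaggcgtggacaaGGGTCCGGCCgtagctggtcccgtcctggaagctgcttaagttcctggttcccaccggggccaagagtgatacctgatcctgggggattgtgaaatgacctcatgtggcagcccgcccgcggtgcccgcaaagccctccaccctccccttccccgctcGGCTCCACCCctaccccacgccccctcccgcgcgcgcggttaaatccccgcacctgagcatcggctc
RNASE7 at chr14:21042112-21042361: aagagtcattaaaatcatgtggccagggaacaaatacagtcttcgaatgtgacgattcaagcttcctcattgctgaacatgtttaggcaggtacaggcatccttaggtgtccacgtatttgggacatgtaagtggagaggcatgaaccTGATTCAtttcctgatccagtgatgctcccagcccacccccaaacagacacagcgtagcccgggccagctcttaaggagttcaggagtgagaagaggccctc
The LCN2 window held a pair of overlapping kappaB matches that began 176 and 175 bases before the start and an AP-1 match that began 52 bases before it. The WFDC2 window held kappaB matches that began 225 and 67 bases before the start and no AP-1 match. The RNASE7 window held an AP-1 match that began 102 bases before the start and no kappaB match. Of all 35116 windows of this length, 54.4% held the kappaB letters and 6.57% the AP-1 letters, and a match is a description of the sequence only. No window of the 6 members searched (LCN2, WFDC2, RNASE7, CAMP, LTF and PGLYRP4) held TATAAA, which 10.7% of all windows held. DEFB1 and DEFB4A were left out of this search.

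DEFB1 and DEFB4A were dim. DEFB1 had log2 signals of -6.23 and -6.58 in the controls and -6.84 and -7.07 after knockdown, not far above the lowest signal well above background on these arrays, -7.34 to -7.77. Its log2 fold change of -0.55 (SE 0.16, 95% confidence interval -0.98 to -0.11) had a limma adjusted p of 0.05004, just above the threshold. It passed in 8 of 17 alternative settings, and without scaling the fold change was -0.04 and the processed signals overlapped, 19.5 and 14.4 units in the controls against 17.0 and 15.6 after knockdown.

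DEFB4A had log2 signals of -4.70 and -4.92 in the controls and -4.95 and -5.07 after knockdown. The groups came within 0.03 of each other. The log2 fold change was -0.20 (SE 0.10, 95% confidence interval -0.48 to 0.08, limma adjusted p = 0.177), and without scaling it was 0.30. The interval leaves room for a small change in either direction. DEFB4B is a nearly identical copy, and whether the probe also binds its transcripts was not tested.

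CAMP, LTF and PGLYRP4 were not well above background on any of the 4 arrays, and no fold change was given for them. Their log2 signals ranged from -9.89 to -9.66 for CAMP, from -9.71 to -8.47 for LTF and from -9.62 to -9.46 for PGLYRP4. All of these lay below the lowest signal well above background on any array, which was -7.77.

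**Figure D3:**
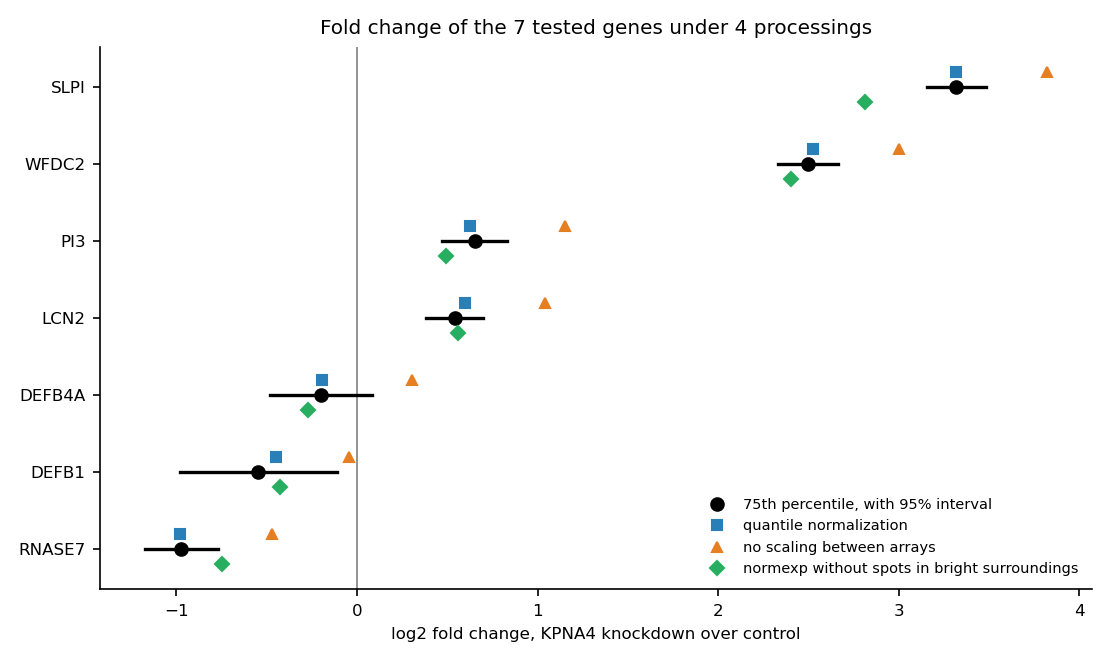
Log2 fold change, KPNA4 knockdown over control, of the 7 tested members with 95% confidence intervals, scaled to the 75th percentile (black), after quantile normalization, without scaling, and after normexp without spots in bright surroundings. SLPI and WFDC2 lie far to the right of 0, PI3 and LCN2 between 0.54 and 0.65 with the main scaling, RNASE7 to the left, and the interval of DEFB4A includes 0.

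The genes around the members were described by lists that leave the members out, and how many of a list were called in each direction depended on the scaling. Of 55 listed other antimicrobial proteins, 17 were tested, and 4 were higher and 3 lower (median log2 fold change -0.06). Without scaling 12 were higher and 1 lower, and without either knockdown array 1 was lower. S100A9 and S100A8, which form calprotectin, a metal-binding antimicrobial complex, had the largest rises. S100A9 had log2 signals of -4.03 and -4.56 in the controls and -1.15 and -1.18 after knockdown, a log2 fold change of 3.13 (SE 0.19, limma adjusted p = 0.00163). S100A8 had -3.57 and -4.54 in the controls and -1.61 and -1.65 after knockdown, a log2 fold change of 2.43 (SE 0.34, limma adjusted p = 0.00908). The knockdown arrays lay above the control arrays for both, although the control arrays lay farther from each other than the knockdown arrays did. ADM, a vasoactive peptide with antimicrobial activity, fell by 1.18 on the log2 scale (SE 0.06, limma adjusted p = 0.00122). BPIFB2 fell by 0.35 (SE 0.06, limma adjusted p = 0.0155), but without scaling its log2 fold change was 0.15, and it missed the threshold without either knockdown array (limma adjusted p = 0.0829 and 0.0970).

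Of 42 listed other antiproteases, 20 were tested, and 6 were higher and 5 lower (median log2 fold change 0.10). Without scaling 14 were higher and 0 lower by limma (0 lower also at an unadjusted p under 0.05), and without either knockdown array 2 were lower. SERPINA1, the circulating inhibitor of neutrophil elastase, rose by 1.79 (SE 0.09, limma adjusted p = 0.00108; 1.09 under normexp without spots in bright surroundings) and PI16 by 1.28 (SE 0.06, limma adjusted p = 0.000915). CST2, a salivary cystatin, fell by 0.77 (SE 0.17, limma adjusted p = 0.0240), but its log2 fold change was -0.27 without scaling (limma adjusted p = 0.131). Under plain normexp, which called no gene, it was 1.22. CST2 also missed the threshold with no filter on dim probes and without control 1, control 2 or knockdown 2, with limma adjusted p-values from 0.0546 to 0.0950. CSTA, a cystatin of the cornified envelope, fell by 0.63 (SE 0.06, limma adjusted p = 0.00410), but without scaling its log2 fold change was -0.12 (limma adjusted p = 0.359).

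Of 28 listed proteases that the members inhibit, or that process them, 23 were tested, and 17 were higher and 1 lower. Of these 17, KLK7, KLK8, KLK11, KLK13, TMPRSS4 and TMPRSS11E were measured only in the knockdown arrays and entered the test only through the group in which they were high. With the filter on all 4 arrays 11 were higher and 1 lower, and without knockdown 2 it was also 11 and 1. KLK5, a kallikrein-related peptidase that activates the cathelicidin precursor, had log2 signals of -5.55 and -5.19 in the controls and 2.41 and 2.44 after knockdown, a log2 fold change of 7.80 (SE 0.14, limma adjusted p = 0.000298). KLK8, which did not stand well above background in the controls, was at least 193-fold higher after knockdown (limma adjusted p = 0.000915), and under normexp without spots in bright surroundings its log2 fold change was 4.49. KLK7, a target of SLPI and of PI3, was at least 9.08-fold higher on the same terms (limma adjusted p = 0.000221, chosen after its value was seen). The lower one, the lysosomal cathepsin CTSB, fell by 0.46 (SE 0.09, limma adjusted p = 0.0172), but without scaling its log2 fold change was 0.04, and it missed the threshold without control 2 or knockdown 2 (limma adjusted p = 0.0638 and 0.0811). ELANE, the neutrophil elastase that SLPI and PI3 inhibit, was not well above background on any array.

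**Figure D4:**
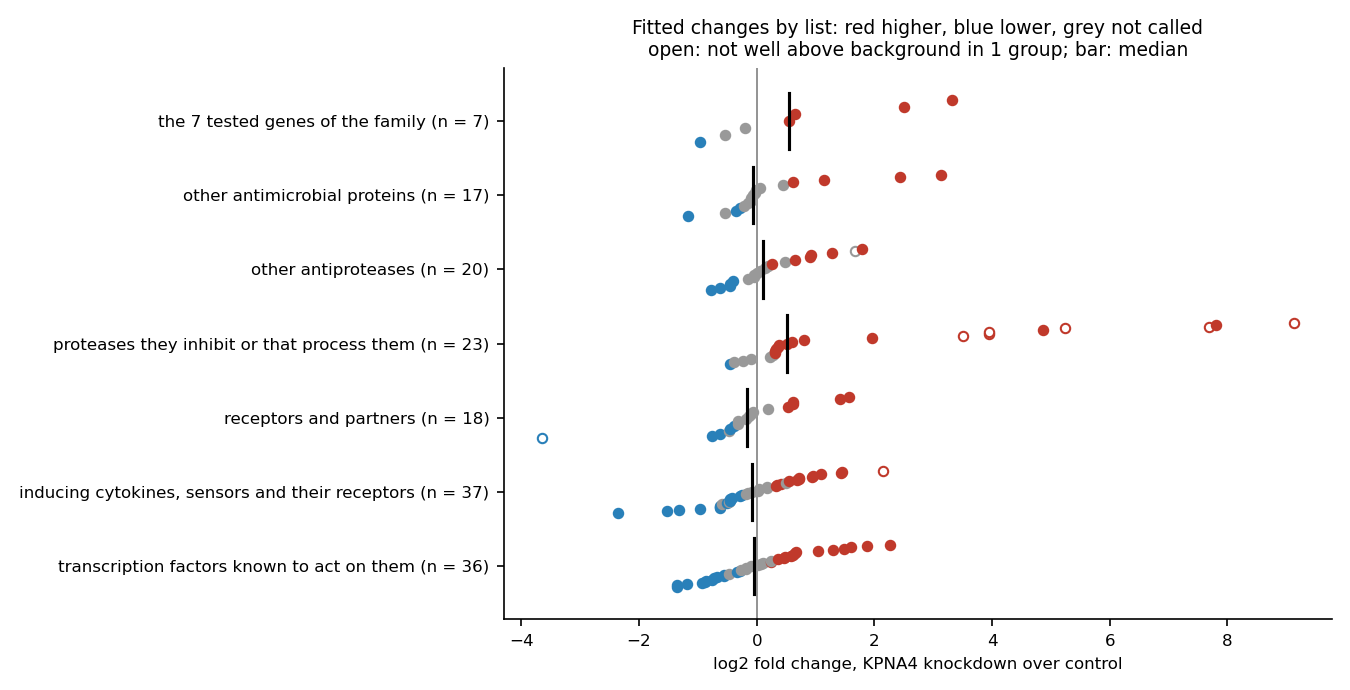
Log2 fold changes, KPNA4 knockdown over control, of the 7 tested members and of the tested genes in each of the 6 lists around them, 1 point per gene, with the median as a bar; open points were not well above background in 1 group and show fitted values. The protease list holds the largest fitted rises, 6 of them as open points, and the medians of the other 5 lists lie between -0.16 and 0.10.

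Of 22 listed receptors and partners, 18 were tested, and 5 were higher and 5 lower (median log2 fold change -0.16). Without scaling 10 were higher and 1 lower, and 2 were lower without knockdown 1 and 3 without knockdown 2. TGM1, a transglutaminase of the cornified envelope, rose by 1.57 (SE 0.16, limma adjusted p = 0.00465) and the endocytic receptor LRP1 by 1.42 (SE 0.06, limma adjusted p = 0.000768). The probes of LRP1 differed, with a log2 fold change of 0.64 for their mean (limma adjusted p = 0.0101), and the gene's value was 0.50 under normexp without spots in bright surroundings. TFRC, the transferrin receptor, fell by 0.76 (SE 0.06, limma adjusted p = 0.00295), but without scaling its log2 fold change was -0.26 (limma adjusted p = 0.0965). PLSCR4, which binds SLPI at the membrane, was not well above background on either knockdown array and was at least 6.99-fold lower (limma adjusted p = 0.00213). Its log2 fold change was 0.54 under plain normexp, which called no gene, and -1.11 or lower under every other alternative.

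Of 46 listed cytokines, sensors and receptors known to induce such proteins, 37 were tested, and 13 were higher and 14 lower (median log2 fold change -0.08). Without scaling 21 were higher and 4 lower. With 1 array left out the counts fell as low as 8 higher, without knockdown 1, and 7 lower, without knockdown 2, and 8 were lower without control 1. IL1A, an epithelial alarmin, had log2 signals of 3.47 and 3.34 in the controls and 1.02 and 1.08 after knockdown, a log2 fold change of -2.35 (SE 0.07, limma adjusted p = 0.000490). TLR2, a sensor of bacterial lipoproteins, fell by 1.53 (SE 0.06, limma adjusted p = 0.000719), whereas its partner TLR1 rose by 1.44 (SE 0.07, limma adjusted p = 0.00107; 0.46 under normexp without spots in bright surroundings). IL36RN, an antagonist of the IL-36 receptor, was at least 4.44-fold higher (limma adjusted p = 0.000965), with control signals that did not stand well above background. Under normexp without spots in bright surroundings its log2 fold change was 0.29, a value that the added 50 units draw toward 0 at signals this dim.

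Of 40 listed transcription factors and related regulators known to act on the members, 36 were tested, and 14 were higher and 13 lower (median log2 fold change -0.04). Without scaling 21 were higher and 6 lower. CEBPA, a factor of epithelial and myeloid differentiation, had log2 signals of -2.49 and -2.44 in the controls and -0.23 and -0.18 after knockdown, a log2 fold change of 2.26 (SE 0.06, limma adjusted p = 0.000408). KLF5 rose by 1.88 (SE 0.13, limma adjusted p = 0.00208). FOSL1, a subunit of AP-1, fell by 1.36 (SE 0.10, limma adjusted p = 0.00228), and CYP27B1, the enzyme that activates vitamin D, fell by 1.36 (SE 0.09, limma adjusted p = 0.00177). Of the NF-κB genes in the list (chosen after their values were seen), NFKBIZ, a nuclear cofactor needed for LCN2 induction, fell by 0.93 (limma adjusted p = 0.00271), RELB by 1.19 (limma adjusted p = 0.00145), NFKBIA by 0.76 (limma adjusted p = 0.00269) and NFKB1 by 0.67 (limma adjusted p = 0.00543), whereas BCL3 rose by 0.24 (limma adjusted p = 0.0320). RELA, at -0.27 (limma adjusted p = 0.0546), and REL, at -0.19 (limma adjusted p = 0.0678), did not pass the threshold. These NF-κB values hold for the main scaling only. The median of all genes was -0.10 with it and 0.40 without any, so the smaller of these falls depend on the scaling. VDR, the vitamin D receptor, fell by 0.89 (limma adjusted p = 0.00182, likewise chosen). Listed regulators thus moved in both directions in the cultures in which SLPI, WFDC2, PI3 and LCN2 were higher and RNASE7 was lower. A link between any of them and the members was not tested.

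Several members are also made by neutrophils and by glandular epithelium, so markers of these cells were set beside them. All 15 squamous keratinocyte markers were well above background on all 4 arrays, 9 of them higher and 5 lower after knockdown. KRT6A had the largest rise of these, a log2 fold change of 6.94 (SE 0.06, limma adjusted p = 0.000178). ITGB4 had the largest fall, with -1.15 (SE 0.06, limma adjusted p = 0.00102). Of 13 neutrophil and myeloid markers with a probe, 8 were well above background on each array, and MPO, ELANE, AZU1, MMP8 and CEACAM8 were so on none. Their summed signal, divided by the 75th percentile of the array, was 4.81 and 4.88 in the controls and 6.69 and 6.36 after knockdown, and 4 were higher and 2 lower. CD14 alone made up 83.9% to 92.0% of that sum. Of 10 secretory or glandular markers with a probe, 5 were well above background on each control array and 6 on each knockdown array, and MUC7, MUC5B, PIP and STATH were so on none. Their summed signal on the same scale was 6.49 and 8.16 in the controls and 7.35 and 6.54 after knockdown, so the groups overlapped, and SCGB3A1 alone made up 80.5% to 96.8% of it. Of these markers 2 were higher and 1 lower. SCGB1A1, a secretoglobin of airway secretory cells, had log2 signals of -3.17 and -3.09 in the controls and 0.22 and 0.18 after knockdown, a log2 fold change of 3.33 (SE 0.06, limma adjusted p = 0.000298), next to the 3.32 of SLPI. PIGR, which carries antibodies across epithelium, did not stand well above background in the controls and entered the test only through the knockdown arrays. It was at least 5.52-fold higher (limma adjusted p = 0.00254 for the fitted change). AQP5, a water channel of glands, fell by 0.46 (SE 0.07, limma adjusted p = 0.01005), although its unscaled signals overlapped, while SCGB3A1 (-0.32), TFF3 (-0.33) and BPIFA1 (-0.04) did not pass the threshold. Of 8 fibroblast markers, 4 or 5 were well above background on each array and 3 on none, with a summed signal on the same scale of 0.145 and 0.150 in the controls and 0.333 and 0.352 after knockdown, and 3 were higher and 1 lower. The part of other cell types or states in the changes of SLPI, WFDC2, PI3 and LCN2 was not tested.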

How the data were processed

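Total RNA from 2 control cultures and 2 with KPNA4 knockdown was measured on 4 arrays of 1 slide, read in 1 scan, so a slide block was not needed. The authors deposited Feature Extraction 11.0.1.1 output, whose processed signal intensity has had the background subtracted and spatial trends removed. The second deposited table holds a ratio, which the values show to be processed signal over the array's 75th percentile, for 24209 of the 34127 probes (100% of its values within 0.01 on the log2 scale), and was used as an alternative.

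From the deposited intensity, log2 was taken without control or outlier-flagged spots, replicate spots were averaged per probe, and each array's 75th percentile was subtracted. Gene names came from matching each probe's transcript to RefSeq (GRCh38.p14), which gave 25771 of 34127 probes a gene. The arrays' grid refers to another assembly, so only promoter windows carry coordinates. Probes entered the test if both arrays of 1 group or more showed them well above background, and the brightest probe stood for a gene. Well above background were 70.2% to 71.0% of probes. With 2 arrays in a group, their number limits the precision.

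The comparison used lmFit and eBayes of limma 3.58.1 (R 4.3.3), Benjamini-Hochberg adjustment and a threshold of 0.05, and the procedure was tested on simulated data. "At least" folds set the mean of the bright group against, on each array of the dim group, the lowest signal well above background or the probe's own if higher. An adjusted p beside such a fold belongs to the fitted change, which uses the dim values. Such genes entered the test only through their bright group. The genes named are all members, KPNA4, and from each list the 2 largest rises and falls among called genes whose groups do not overlap. Genes of the WAP cluster, cell type markers and genes marked as chosen after their values were seen fall outside this rule. The members and lists were chosen with earlier results of these data known. Alternatives were other scalings, normexp background correction on the deposited median spot intensity and local background, the deposited table, other filters on dim probes, other probe summaries, limma's trend and robust options, a replicate block, a threshold of 0.01 and each array left out. The normexp runs added an offset of 50 units to each signal, which draws the fold changes of dim probes toward 0.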

Additional observations from a re-analysis of the deposited data

How the results depend on the processing

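SLPI, WFDC2, PI3 and LCN2 were called higher under every alternative run except plain normexp background correction, which called 0 members and 0 of all genes with limma after adjustment (2 members and 1165 genes at an unadjusted p under 0.05) and gave KPNA4 -1.96 (adjusted p = 0.651, range over alternatives 3.825e-05 to 0.651). With each array left out, 4 members were called higher in each case and 1 to 2 lower. The count of members called lower was 1, and it was 2 with median scaling, the deposited table, the filter on all 4 arrays, the replicate block, the mean over probes, every probe on its own, and without control array 2, DEFB1 being the added gene. It was 3, with DEFB4A added, when normexp was run without 12 spots whose local background was over 100 units, an alternative chosen after seeing the data. Values with changed sign were, under normexp, DEFB1 1.18, DEFB4A 1.03, RNASE7 0.39, BPIFB2 1.05, CST2 1.22 and PLSCR4 0.54, and, without scaling, DEFB4A 0.30, BPIFB2 0.15 and CTSB 0.041. Without scaling CST2, CSTA and TFRC also lost their calls, and FOSL1 (-0.86), CYP27B1 (-0.85) and ADM (-0.67) kept theirs with smaller values. Over all genes, 3973 were higher and 5766 lower; without scaling these were 11258 and 1048, at a threshold of 0.01 they were 2132 and 2339, and with an array left out 2152 to 3596 and 2523 to 4746, while normexp without those 12 spots called 9119 lower. KPNA4 ranged from -1.97 to -1.67 with an array left out. The replicate numbers share only a number (correlation of deviations -0.03, 2 pairs), and the replicate block changed no other call of a member. Without those 12 spots normexp called 3743 genes higher and gave KPNA4 -1.77 (limma adjusted p = 4.63e-05). The cause of the remaining differences between settings was not tested. DEFB1 and DEFB4A are limited by their low signal over background.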
